A study of Homo sapiens with 16 samples.

Results

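The comparison described here sets HEK293 cells that overexpressed RNF43 G659fs, a frameshift variant, against HEK293 cells that overexpressed wild-type RNF43 (WT). It takes 8 of the 16 libraries of the series, 4 for each construct, chosen by the labels alone, and asks whether the variant keeps the transcriptional effect of the wild-type protein. HEK293 is a human line derived from embryonic kidney. Another group, HEK293 cells that overexpressed GFP, is the control of both constructs and had 4 libraries. The labels named no other treatment, no time after transfection or transduction, no promoter and no clone, so that each group is one line with one construct as far as they say. Nothing in the labels says that the 4 libraries of a group came from separate cultures, so a p-value here weighs a difference against library-to-library spread that could be technical alone.

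RNF43 is a transmembrane E3 ubiquitin ligase. It marks Frizzled receptors, which bind Wnt ligands, for removal from the cell surface, and so restrains Wnt signalling. R-spondins, bound to LGR receptors, in turn clear RNF43 and its relative ZNRF3 from the membrane. RNF43 is itself a Wnt target in the gut and is often lost in colorectal, gastric and endometrial tumours. G659fs is the frameshift seen again and again in tumours with faulty mismatch repair. It lies in the cytoplasmic tail, downstream of the RING domain that carries the ligase activity, so the RING domain stays in the reading frame.

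The codon that names the variant sits at a run of guanines, which is why the sequence is shown. In GENCODE 29 on GRCh38, codon 659 of the 783 codons of transcript ENST00000407977 is in exon 9 of 10. Codons 644 to 674 lie at chr17:58357754-58357846 on the minus strand and read as follows, with the run of 7 guanines (chr17:58357800-58357806, coding bases 1970 to 1976) in capitals.
RNF43 codons 644 to 674: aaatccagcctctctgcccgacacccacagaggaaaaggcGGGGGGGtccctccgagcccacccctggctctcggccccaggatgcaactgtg
Loss of 1 base of that run would change the reading frame from residue 659, add 40 changed residues and end the protein after 698, in place of the last 125. The labels give the name of the variant and no base change, so this reading is of the annotated sequence and not of the construct.

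Both constructs were present at very high levels. Levels are given as CPM, the estimated count of a gene scaled to a library total of 1000000 after TMM scaling. RNF43 (ENSG00000108375, chr17:58352500-58417595) had 36460, 39280, 35550 and 47520 CPM in the G659fs libraries, against 42500, 58860, 53120 and 60070 CPM in the WT libraries. The GFP libraries had 13.2 to 50.84 CPM. WT replicate 1 fell inside the G659fs range, and the groups overlapped. The log2 difference, G659fs minus WT, was -0.43 ± 0.28 (SE), with a 95% interval of -1.06 to 0.20 and an adjusted p of 0.304 (edgeR). The interval holds both 0 and a difference of more than 1.5-fold, so equal levels of the 2 RNAs were not shown. RNF43 took 3.53% to 4.67% of the counts of the G659fs libraries and 4.1% to 5.75% of those of the WT libraries. Within RNF43, transcript ENST00000577625 held 71.9% ± 0.25 of the counts in G659fs and 72.5% ± 0.42 in WT (SD, n = 4 each). That difference of -0.61 percentage points did not pass (exact two-sided permutation test, p = 0.0571, where the smallest possible p is 0.0286). ENST00000577625 is annotated at 2198 bases, shorter than the 2349 coding bases of ENST00000407977, which held 0.001% of the counts in each construct group. The shares are estimates over annotated transcripts, and the construct sequences are not given, so they do not show which RNA was made.

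Total estimated counts were 29886062 to 44738520 in the G659fs libraries, 32761360 to 46779570 in WT and 25441077 to 30937321 in GFP. No library of these 3 groups was left out of the main fit. Chi-square per degree of freedom between the counts of 2 libraries of a group was 3.541 to 8.294 in G659fs and 3.817 to 11.26 in GFP. In WT it was 3.966 to 20.01, widest between replicates 1 and 2. No pair within a group was close enough to be 1 library deposited more than once. In a principal component analysis the first component (40.7% of the variance) separated GFP from both constructs, and the second (18%) separated G659fs, at -15.3 to -3.70, from WT, at 3.36 to 22.0. Of the WT libraries, replicate 1 was farthest from G659fs on that component and replicate 2 was closest. Of 8 HEK293 markers 1 was called higher (12.5%, against 11.1% of all genes) and 0 lower, and PAX2, EYA1 and VIM were present in every group. Differences were negative in 5 of the 8, down to -0.75 on the log2 scale. In some alternative analyses, among them DESeq2, 1 marker was lower. Of 10 haematopoietic marker genes 6 were tested, with a summed level of 7.99 to 9.29 CPM in G659fs and 6.89 to 9.48 in WT. Of these 1 (ITGAM) was lower (16.7%, against 12.5% of all genes). The gut epithelium list summed to 32.8 to 35.2 CPM in G659fs and 30.9 to 34.8 CPM in WT, most of it CDX2, and none of its 5 tested genes was called. The fibroblast list summed to 55.6 to 71.1 CPM in G659fs and 35.8 to 49.8 CPM in WT. Of its 6 tested genes 2 were higher (33.3%, against 11.1% of all genes), COL1A1 and COL3A1, which are given with the matrix genes.

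The constructs differed from each other less than either differed from GFP. A gene was called when its edgeR quasi-likelihood p, adjusted over all 16576 genes tested (Benjamini-Hochberg), was under 0.05. G659fs and WT differed in 3909 genes, 23.6% of those tested. Of these 1842 (11.1% of the genes tested) were higher in G659fs and 2067 (12.5%) were lower. Most of the differences were small: the median size over all genes was 0.13 on the log2 scale, 380 called genes differed by at least 1.5-fold (175 higher, 205 lower), and 96 by at least 2-fold (21 higher, 75 lower). For 12757 genes (77.0%) the whole 95% interval lay within 1.5-fold in either direction, and for 56 it lay wholly beyond. Against GFP, G659fs differed in 7108 genes (42.9%) and WT in 6485 (39.1%), with 1226 and 1020 called at 1.5-fold or more. These last comparisons share the GFP libraries, so their counts are not independent of each other.

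How many genes were called depended on the libraries in the fit. With the R117fs group added, whose libraries earlier results had shown to vary more, the same test called 837 genes, 336 higher and 501 lower, all of them among the 3909. With the effective length of each gene's transcripts as an offset it called 1943. Without G659fs replicate 2 or replicate 3 the count was 2394 or 2483, and without WT replicate 1 there were 1218 higher calls and 249 at 1.5-fold. The difference also followed base composition weakly across genes (Spearman 0.202 over genes, which share the libraries): its median was -0.04 in the 25% of genes lowest in GC and 0.07 in the 25% highest.

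**Figure D1:**
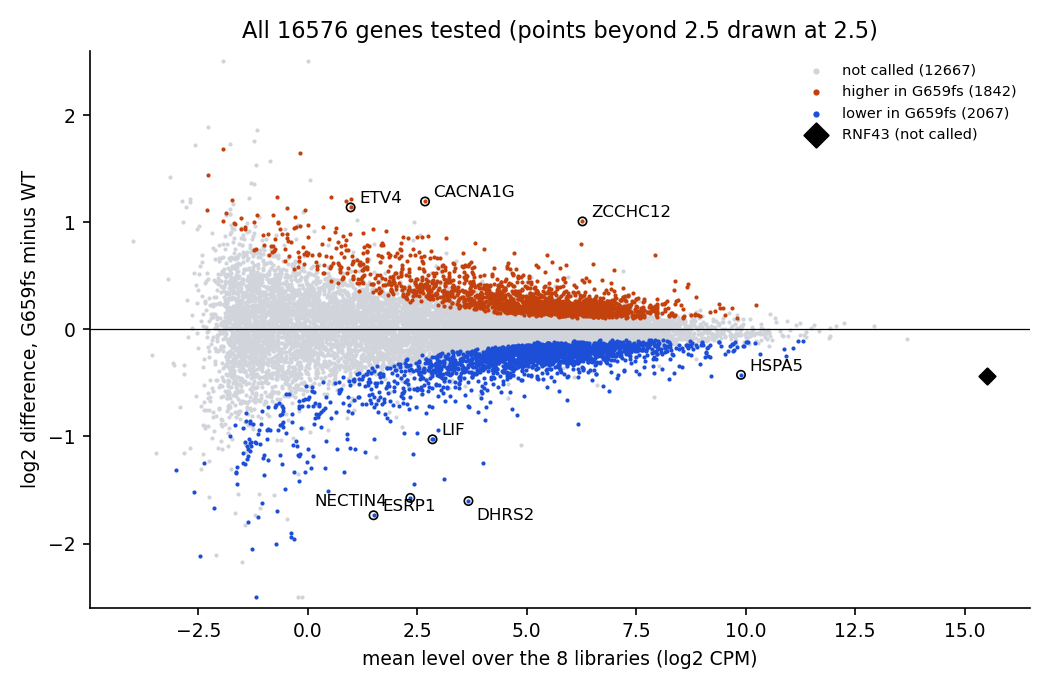
Log2 difference, G659fs minus WT, of each gene tested against its mean level over the 8 libraries in log2 CPM, 1 point a gene, with the genes called higher in G659fs in orange, those called lower in blue and the rest in grey. Most called genes lie close to 0, with 96 of 3909 at 2-fold or more, and RNF43 is the most abundant gene at the right, not called.

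A set of 12 genes that respond strongly to wild-type RNF43 were set side by side in the 3 groups. They were picked because earlier results had shown them to differ between WT and GFP, so their distance from GFP in WT is not a finding here. G659fs against WT was not used to pick them, but it shares the WT libraries with the comparison that was. The choice can therefore shift the difference between the constructs toward GFP. Of the 12, 7 were not called between the constructs. The share called was 41.7%, against 23.6% of all genes, so these genes were called more often than genes at large. Lower calls were 33.3%, against 12.5% of all genes, and higher calls 8.33%, against 11.1%. EGR1, a transcription factor of the immediate early response to growth factors, had 51.23, 61.45, 60.56 and 56.61 CPM in G659fs, against 25.82, 56.95, 42.22 and 48.63 CPM in WT, with 5.95 to 9.46 CPM in GFP. All 8 libraries with a construct were above all GFP libraries, and the groups overlapped through WT replicate 2. The difference of 0.40 ± 0.21 had an interval of -0.07 to 0.87 and an adjusted p of 0.198.

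IL32, a cytokine gene, was at 8.82 ± 1.24 CPM in G659fs and 9.44 ± 1.46 CPM in WT, against 2.01 ± 0.22 CPM in GFP (SD, n = 4 each). Its difference was -0.09 with an interval of -0.34 to 0.15, which keeps any gap between the constructs within 1.5-fold. FTCD, an enzyme of histidine breakdown, was at 1.45 ± 0.20 CPM in G659fs and 1.52 ± 0.06 CPM in WT, against 7.94 ± 0.57 CPM in GFP. Its difference of -0.06 had an interval of -0.33 to 0.22, again within 1.5-fold. PTGS2, the inducible cyclooxygenase, had a difference of -0.19 (-0.37 to -0.01, adjusted p = 0.11), the matrix glycoprotein gene TNC -0.15 (-0.51 to 0.20, adjusted p = 0.547) and the alpha kinase gene ALPK3 0.17 (-0.15 to 0.49, adjusted p = 0.446). Those intervals also lay within 1.5-fold. The constructs did not overlap in PTGS2, at most 5.991 CPM in G659fs and at least 6.338 CPM in WT, and did overlap in TNC and ALPK3. The sign of 2 of these small differences was not stable: that of PTGS2 was 0.10 with the effective length offset, and that of ALPK3 was -0.003 without WT replicate 1.

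HSPA6, a heat-inducible chaperone gene, could not be placed. It had 15.63, 19.26, 15.74 and 24.28 CPM in G659fs, against 11.16, 65.16, 28.85 and 51.95 CPM in WT, and 1.72 to 1.96 CPM in GFP. The WT libraries spread widely on both sides of the G659fs ones, and the interval of its difference ran from -2.07 to -0.08 (adjusted p = 0.111). HSPA6 is nearly identical to HSPA7, so its counts are uncertain.

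The other 5 genes were called. ESRP1, a splicing regulator of epithelial cells, had 1.65, 1.04, 1.27 and 1.30 CPM in G659fs, against 4.50, 3.40, 5.15 and 4.36 CPM in WT and 0.79 to 1.63 CPM in GFP. Every G659fs library was below every WT library, and all but replicate 1 lay inside the GFP range. ESRP1 was lower in G659fs by 3.33-fold (log2 difference -1.74 ± 0.19, adjusted p = 4.49e-05), and the difference of G659fs from GFP was 0.05 with an interval of -0.39 to 0.49. Its call held under each of 23 alternative analyses. INPP5D, SMC1B and CFAP43, lower in WT than in GFP, were lower still with the variant. INPP5D, a lipid phosphatase of blood cells, was at 1.25 ± 0.26 CPM in G659fs, 2.45 ± 0.42 in WT and 7.38 ± 1.08 in GFP (difference -0.98, adjusted p = 0.00112, and 0.166 with the length offset). SMC1B, a meiotic cohesin subunit, was at 0.52 ± 0.13, 1.22 ± 0.55 and 4.07 ± 0.66 CPM in the same groups (-1.18, adjusted p = 0.009), and CFAP43, a protein of motile cilia, at 2.58 ± 0.56, 4.10 ± 0.53 and 12.6 ± 1.39 CPM (-0.68, adjusted p = 0.00295). CFAP43 overlapped between the constructs through G659fs replicate 1 and WT replicate 2.

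CXCL8, a chemokine gene induced by NF-kappaB, was the 1 gene of the 12 that was called higher. It had 5.26, 7.91, 7.65 and 5.90 CPM in G659fs, against 2.77, 5.96, 3.90 and 3.13 CPM in WT and at most 0.45 CPM in GFP. WT replicate 2 was above 2 of the G659fs libraries. The difference of 0.75 ± 0.22 had an adjusted p of 0.0227, which rose above the threshold in 7 of 23 alternatives (up to 0.075), among them the omission of WT replicate 1, 3 or 4.

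**Figure D2:**
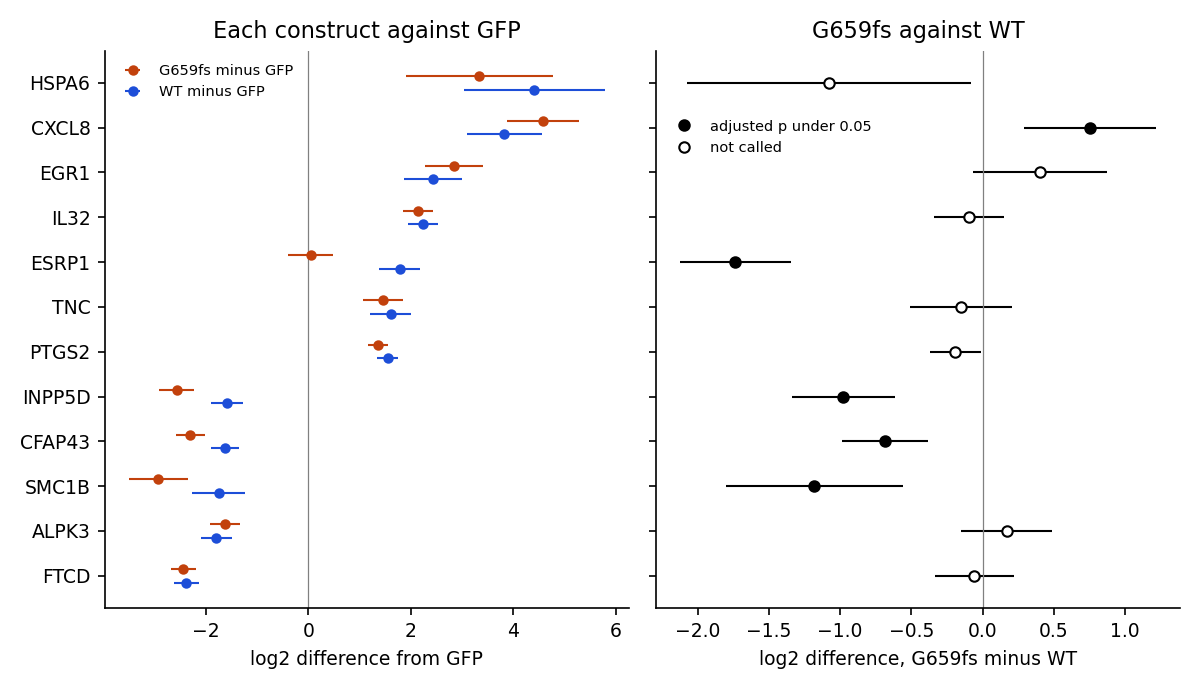
Log2 differences with 95% intervals of the 12 genes chosen for their response to wild-type RNF43: left, G659fs (orange) and WT (blue) each against GFP, whose libraries both share; right, G659fs minus WT, with filled points for genes called. On the right 7 of 12 points are open (41.7% called, against 23.6% of all genes tested). ESRP1, at -1.74, is the 1 gene whose G659fs value on the left lies at 0.

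Genes of the unfolded protein response, which raises chaperones and degradation factors when proteins misfold in the endoplasmic reticulum (ER), were lower with the variant. Of 20 genes listed and tested, 13 (65%) were lower in G659fs and 0 were higher, with a median log2 difference of -0.22, against 12.5% lower and a median of 0.001 over all genes. HSPA5, the main chaperone of the ER lumen (ENSG00000044574, chr9:125234853-125241330), had 837.7, 797.6, 779.8 and 828 CPM in G659fs, against 1096, 1090, 1086 and 1083 CPM in WT and 606.7 to 654.6 CPM in GFP. The 3 groups did not overlap, and the G659fs libraries lay between the others. HSPA5 was lower in G659fs by 1.34-fold (log2 difference -0.42 ± 0.04, adjusted p = 7.2e-06, and 0.083 with all 16 libraries). The WT libraries lay close together, and WT replicate 1, whose RNF43 level lay in the G659fs range, had 1096 CPM. A part of the RNF43 level in the HSPA5 difference was not tested.

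XBP1, the transcription factor of one arm of the response, had 357.3, 324.3, 309.8 and 332.8 CPM in G659fs, against 449.2, 387.6, 436.6 and 412.7 CPM in WT and 263.6 to 304.8 CPM in GFP. The groups again did not overlap (difference -0.35 ± 0.05, adjusted p = 0.000485). MANF, a secreted ER stress factor, was at 76.2 ± 3.24 CPM in G659fs, 98.8 ± 3.68 in WT and 56.1 ± 1.69 in GFP, a difference of -0.38 ± 0.04 (adjusted p = 5.3e-05). DNAJB9, an HSPA5 co-chaperone, differed by -0.43, HERPUD1, which acts in the degradation of misfolded ER proteins, by -0.43, and SEL1L, part of the same degradation machinery, by -0.40. DERL3, also of that machinery, had the widest gap of the list at -0.78 ± 0.15, with 2.25 CPM in G659fs and 3.84 CPM in WT.

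The rest of the list divided by function less clearly. The chaperones HSP90B1, HYOU1 and CANX, the translocon subunit SEC61B, SDF2L1 and the disulfide isomerase PDIA4 were lower, at -0.30 to -0.16 on the log2 scale. The disulfide isomerases PDIA3 and PDIA6, the chaperone CALR, CRELD2, the HSPA5 co-chaperones DNAJB11 and DNAJC3, and EDEM1 were not called, at -0.10 to 0.03, and the 95% interval of each of these 7 lay within 1.5-fold. The list had 11 to 13 lower calls when any 1 library was left out, 12 with the GC trend removed, 10 with the length offset and 5 with all 16 libraries.

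**Figure D3:**
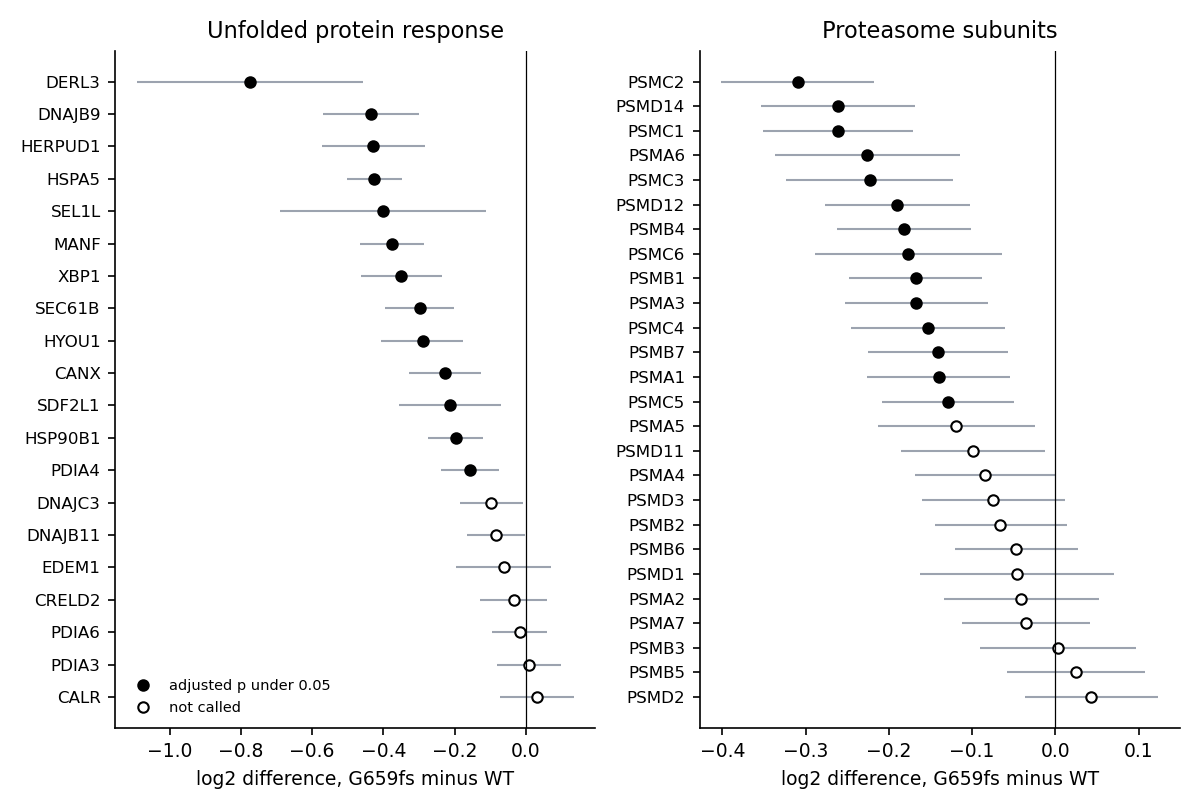
Log2 difference, G659fs minus WT, with its 95% interval for 20 genes of the unfolded protein response (left) and 26 proteasome subunits (right), filled where the edgeR adjusted p was under 0.05. In the left panel 13 genes are called, all left of 0, from PDIA4 at -0.16 to DERL3 at -0.78, and in the right panel 14 are called, all left of 0, down to PSMC2 at -0.31.

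The promoters of these genes were read for the ER stress response element, a site bound by ATF6 and XBP1, to see whether the called genes were those that carry it. The motif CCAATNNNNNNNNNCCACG was searched on both strands in the 250 bases before the RefSeq gene start (GRCh38.p14). It was found in 7 of 18 genes of the list that have an entry (38.9%), in 0 of 22 proteasome genes and in 25 of 27305 genes in all (0.0916%). The list holds genes of the ER stress response by choice, so its high share is not a result of these data. The 4 promoters below show it in capitals, from just before the motif to the gene start. HSPA5 and XBP1 were lower in G659fs, and PDIA6 and CRELD2 were not called.
HSPA5 (chr9:125241344-125241419, minus strand, motif starting 66 bases before the gene start): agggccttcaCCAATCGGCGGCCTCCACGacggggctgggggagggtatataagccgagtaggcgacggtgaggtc
XBP1 (chr22:28800570-28800631, minus strand, 52 bases before): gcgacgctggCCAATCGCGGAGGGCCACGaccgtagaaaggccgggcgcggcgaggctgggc
PDIA6 (chr2:10812786-10812881, minus strand, 86 bases before): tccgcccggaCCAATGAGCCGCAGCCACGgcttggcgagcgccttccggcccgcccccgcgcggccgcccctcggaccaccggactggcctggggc
CRELD2 (chr22:49918544-49918633, plus strand, motif on the other strand, 80 bases before): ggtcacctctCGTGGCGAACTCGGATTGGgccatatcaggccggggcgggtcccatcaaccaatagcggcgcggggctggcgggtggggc
Of the 7 genes with the motif, 4 were lower (HSPA5, XBP1, HSP90B1 and CANX) and 3 were not called (PDIA6, CRELD2 and CALR). Over the whole list, which contains these 7, 13 of 20 were lower, so genes with the motif were not called more often than the list. With 7 genes the comparison is too small to show whether the motif goes with the calls. An exact match is a description of these letters, and its absence says nothing about binding.

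The integrated stress response, in which ATF4 raises amino acid and stress genes, leaned the same way with fewer calls. Of 20 genes 6 were lower (30%, against 12.5% of all genes) and 0 higher (median -0.13). DDIT3, a factor that promotes cell death under stress, had 56.24, 41.15, 45.21 and 45.46 CPM in G659fs, against 88.65, 58.04, 82.96 and 67.39 CPM in WT and 47.37 to 77.22 CPM in GFP. G659fs and WT did not overlap, while both overlapped GFP (difference -0.66 ± 0.19, adjusted p = 0.032, and up to 0.0959 in 6 of 23 alternatives). PPP1R15A, a phosphatase subunit that ends the response, differed by -0.45 (adjusted p = 0.00027), SESN2 by -0.46 and ATF4 itself by -0.12. The enzymes of amino acid and folate supply ASNS, PSAT1, PHGDH, SHMT2 and MTHFD2 were not called. The count of lower calls ranged from 1 to 12 over the alternatives, with 1 without WT replicate 1 or G659fs replicate 3, 2 without WT replicate 3 or G659fs replicate 2, 3 without G659fs replicate 4 and 10 without GFP replicate 4.

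Genes of proteasome subunits, which form the protease that degrades ubiquitinated proteins, were lower in 14 of 26 cases (53.8%, against 12.5% of all genes) and higher in 0. The amounts were small: the median was -0.13 and every interval lay within 1.5-fold. The ATPase subunit gene PSMC2 had 91.45, 85.21, 85.64 and 83.28 CPM in G659fs, against 113.7, 99.52, 108.3 and 106.9 CPM in WT and 96.98 to 100.9 CPM in GFP. Every G659fs library was below the GFP range, while WT replicates 1, 3 and 4 were above it and replicate 2 inside it. PSMC2 differed by -0.31 ± 0.04 (adjusted p = 0.000303), and all 6 ATPase subunits, PSMC1 to PSMC6, were lower. Of the 14 subunits of the catalytic core in the list 6 were lower, and of the 6 other regulatory subunits PSMD12 and PSMD14 were. Without WT replicate 1 or G659fs replicate 3 the count was 9, with the length offset 8, and with all 16 libraries 2.

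Targets of p53 were lower in 9 of 20 cases (45%, against 12.5% of all genes) and higher in 1 (median -0.17). PHLDA3, an inhibitor of AKT, had 12.72, 12.45, 11.28 and 14.02 CPM in G659fs, against 19.8, 16.47, 19.65 and 20.1 CPM in WT and 29.75 to 39.28 CPM in GFP. The 3 groups did not overlap, with G659fs lowest and GFP highest (difference -0.59 ± 0.10, adjusted p = 0.000728). MDM2, the ligase that degrades p53, differed by -0.24, the death receptor gene FAS by -0.52 and RRM2B, a ribonucleotide reductase subunit, by -0.27. The best known target, CDKN1A, a cell cycle inhibitor, was not called (-0.03, adjusted p = 0.688), nor were BAX and BBC3, which promote cell death. ZMAT3 was the member that was higher, by 0.22. Among 21 DNA replication genes 7 were lower (33.3%, against 12.5% of all genes), including the licensing factor CDC6 (-0.31, adjusted p = 7.97e-05) and 4 of 5 subunits of the clamp loader RFC. Among 21 mitosis genes 4 were lower (19%, against the same 12.5%), all of them cyclins or CDK1. None was higher in either list. The mitosis calls rested on single libraries and settings: 1 was left without WT replicate 2, G659fs replicate 2 or G659fs replicate 3 and with the length offset, and 2 without G659fs replicate 4 and with the GC trend removed. CDK1 and CCNB1 each lost their call in 9 of 23 alternatives. The counts with all 16 libraries were 4 for p53, 1 for replication and 0 for mitosis, and with the length offset 4 for replication.

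On the side of signalling, genes driven by RAS and MAPK were higher in more cases than lower. Of 22 listed genes 5 were higher (22.7%, against 11.1% of all genes) and 1 lower (4.55%, against 12.5%). In all 27.3% were called, near the 23.6% of all genes. The median was 0.22 on the log2 scale, and 20 had a positive difference. ETV4, an ETS factor induced by this pathway (chr17:43527844-43579620), had 2.21, 2.97, 2.77 and 2.95 CPM in G659fs, against 0.53, 1.95, 1.01 and 1.40 CPM in WT and 0.87 to 1.20 CPM in GFP. G659fs was above every WT and GFP library, and WT replicate 1 was the lowest of all. ETV4 was 2.20-fold higher in G659fs (log2 difference 1.14 ± 0.26, adjusted p = 0.00608), a call that held in 23 of 23 alternatives. Its relative ETV5 differed by 0.73, the feedback inhibitor SPRY4 by 0.67 (not called in 7 of 23 alternatives), the phosphatase gene DUSP4 by 0.57 (not called in 3) and the receptor EPHA4 by 0.14. DUSP6, another phosphatase of the pathway, was not called (-0.03, adjusted p = 0.951).

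LIF, a cytokine gene of the same list, went the other way. It had 4.28, 4.94, 4.58 and 5.14 CPM in G659fs, against 9.05, 8.39, 10.68 and 10.62 CPM in WT and 10.93 to 16.08 CPM in GFP. All G659fs libraries were below all others (difference -1.03 ± 0.12, adjusted p = 5.3e-05). The count of higher calls in the list depended on single libraries: it was 1 with all 16 libraries and 3 with the length offset. It was 12 without WT replicate 2, 1 without G659fs replicate 2, 2 without WT replicate 1 or 3 or G659fs replicate 3 or 4, and 3 without WT replicate 4.

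Immediate early genes leaned upward with few calls. Of 27 tested, 24 had a positive difference (median 0.20), 3 were called higher, JUNB, IER2 and HES1, and ATF3 was lower. JUNB, an AP-1 factor, had 29.36, 35.49, 31.11 and 33.74 CPM in G659fs, against 13.82, 24.45, 20.27 and 20.52 CPM in WT and 17.57 to 25.83 CPM in GFP. G659fs was above both other groups, which overlapped each other (difference 0.71 ± 0.16, adjusted p = 0.0111). FOS was at 11.1 CPM in G659fs and 6.72 CPM in WT and did not pass (0.71 ± 0.27, adjusted p = 0.0807), and EGR3 had 0.83 ± 0.29 (adjusted p = 0.0601). The share called higher was 11.1%, the same as over all genes, but it depended on 1 library: without WT replicate 2 the count was 12 of 27. Without G659fs replicate 1, or with the length offset, it was 5, by DESeq2 it was 6, and IER2 lost its call in 8 of 23 alternatives. WT replicate 1 had the lowest level of the WT group in EGR1, JUNB, ETV4 and RNF43, and a part of the RNF43 level in these differences was not tested.

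NF-kappaB response genes were called about as often as all genes on the higher side: of 23 tested 3 were higher (13%, against 11.1% of all genes) and 0 lower, with a median of 0.10. NFKBIA, the inhibitor that NF-kappaB induces as feedback, had 39.84, 46.24, 45.91 and 42.17 CPM in G659fs, against 28.33, 34.43, 33.23 and 31.76 CPM in WT and 20.98 to 23.5 CPM in GFP. The 3 groups did not overlap (difference 0.45 ± 0.06, adjusted p = 0.000312). ICAM1, an adhesion molecule, differed by 0.68 and CXCL8 is described above. TNFAIP3, another feedback inhibitor, was not called (0.19, adjusted p = 0.316), nor were the subunits NFKB1, NFKB2, REL, RELA and RELB, whose intervals are narrow and whose differences were 0.00 to 0.13.

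**Figure D4:**
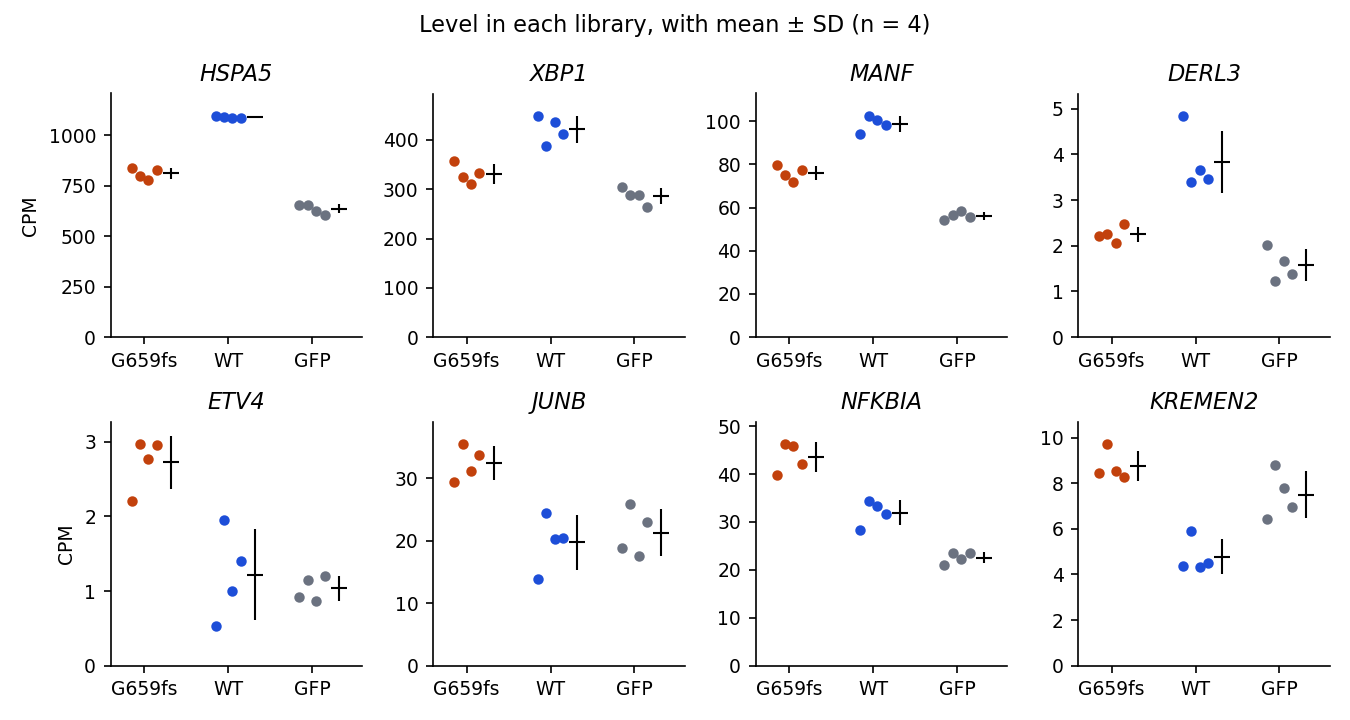
Level in CPM of 8 genes in each library of G659fs (orange), WT (blue) and GFP (grey), 1 point a library, with the mean and SD of the 4 libraries in black beside them; each vertical axis starts at 0. HSPA5, XBP1, MANF and DERL3 in the upper row are lower in G659fs than in WT (for HSPA5 at most 837.7 against at least 1083 CPM), and ETV4, JUNB, NFKBIA and KREMEN2 in the lower row are higher, with no overlap between G659fs and WT.

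Genes of Wnt receptors and their regulators, which encode the proteins nearest to RNF43 itself, were higher in 11 of 26 cases (42.3%, against 11.1% of all genes). In 1 case they were lower, and the median was 0.13. These are RNA levels, and protein at the cell surface was not measured. Among the Frizzled genes, whose protein products are what RNF43 removes, 7 of 10 were higher: FZD1, FZD2, FZD3, FZD5, FZD7, FZD8 and FZD9. FZD9 had 10.44, 11.47, 10.56 and 11.14 CPM in G659fs, against 6.78, 8.89, 7.93 and 8.53 CPM in WT and 6.41 to 7.08 CPM in GFP. Every G659fs library was above every other (difference 0.44 ± 0.08, adjusted p = 0.00176), and the other 6 differed by 0.17 to 0.27. FZD4, FZD6 and FZD10 were not called. The co-receptor LRP6 (0.25), the R-spondin receptor LGR4 (0.33) and the atypical receptor PTK7 (0.14) were higher, while ZNRF3, the relative of RNF43, was not called (0.07 ± 0.04, adjusted p = 0.247). LGR6, another R-spondin receptor, was the member that was lower (-0.65 ± 0.13, adjusted p = 0.00182).

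KREMEN2, a receptor for the Wnt inhibitors of the DKK family (chr16:2963944-2968383), had the widest gap of the list. It had 8.44, 9.71, 8.54 and 8.26 CPM in G659fs, against 4.35, 5.92, 4.32 and 4.49 CPM in WT and 6.45 to 8.80 CPM in GFP. G659fs did not overlap WT and did overlap GFP, and WT was below both. KREMEN2 was 1.82-fold higher in G659fs than in WT (difference 0.87 ± 0.12, adjusted p = 0.000219), and its difference from GFP was 0.22 with an interval of -0.02 to 0.46. The genes of this list are rich in GC (median 55.5%, against 49.5% over all genes), and with the GC trend removed 8 were higher. With the length offset 4 were, and with all 16 libraries 3.

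Direct Wnt targets showed less. Of 17 tested, 3 were higher and 0 lower (17.6%, against 11.1% of all genes, median 0.09). NOTUM, a secreted enzyme that inactivates Wnt, was at 9.91 ± 1.30 CPM in G659fs, 6.81 ± 0.60 in WT and 9.32 ± 1.46 in GFP (difference 0.55 ± 0.11, adjusted p = 0.00294). DKK1, a secreted inhibitor, differed by 0.64 ± 0.20 and the receptor TNFRSF19 by 0.29 ± 0.10. Both overlapped between G659fs and WT, and they lost their call in 6 and 7 of 23 alternatives. The count of targets called higher was 1 with all 16 libraries, with the length offset and without WT replicate 1, WT replicate 3, G659fs replicate 2 or G659fs replicate 3, and 5 without WT replicate 2. AXIN2, the target most often read as a gauge of the pathway, was at 19.2 CPM in G659fs and 18.2 CPM in WT and was not called (0.07 ± 0.09, adjusted p = 0.575), nor were LGR5, NKD1, TCF7 and LEF1. Among the genes that hold or relay beta-catenin, DVL1 (0.24) and BCL9L (0.28) were higher of 14 (14.3%, against 11.1% of all genes). BCL9L lost its call with all 16 libraries, with the length offset and with the GC trend removed (down to 0.10, adjusted p up to 0.656), and DVL1 lost it with all 16 libraries. CTNNB1, which encodes beta-catenin, differed by 0.00 ± 0.03.

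Matrix and adhesion genes were higher in 11 of 26 cases (42.3%, against 11.1% of all genes) and lower in 2 (median 0.13). AGRN, which encodes the basement membrane proteoglycan agrin (chr1:1020123-1056118), had 138.6, 164, 154.1 and 149.7 CPM in G659fs, against 94.61, 113.4, 101.9 and 104.1 CPM in WT and 103.6 to 118.7 CPM in GFP. G659fs was above every WT and GFP library (difference 0.55 ± 0.06, adjusted p = 5.3e-05). LAMA5, a laminin chain, was at 138.8 ± 6.67 CPM in G659fs, 102.8 ± 6.43 in WT and 121.7 ± 4.37 in GFP (0.43 ± 0.05, adjusted p = 5.08e-05). Fibronectin (FN1) differed by 0.48, perlecan (HSPG2) by 0.36 and COL1A1 by 0.63. Both AGRN and LAMA5 kept their call in 23 of 23 alternatives, while the count of higher members was 7 without G659fs replicate 3 and 4 with all 16 libraries.

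NECTIN4 and ESRP1 were the members that were lower. NECTIN4, a cell adhesion molecule (chr1:161070995-161089599), had 2.80, 1.72, 2.71 and 3.05 CPM in G659fs, against 7.94, 6.76, 7.28 and 8.31 CPM in WT and 8.46 to 10.21 CPM in GFP. It was 2.98-fold lower in G659fs than in WT (difference -1.57 ± 0.14, adjusted p = 7.2e-06), and its relatives NECTIN1, NECTIN2 and NECTIN3 were not called. ESRP2, the relative of ESRP1, was higher by 0.23. Of 6 tested fibroblast markers COL1A1 and COL3A1 were higher as well. COL1A1 made up most of the summed level of that list given above, DCN stayed under 1 CPM, and what part other cells might have was not tested. In libraries of this kind more cells that express a gene and more of its RNA per cell cannot be told apart.

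Targets of TGF-beta and BMP were higher in 5 of 15 cases (33.3%, against 11.1% of all genes) and lower in 0 (median 0.19). SMAD6, an inhibitor of BMP signalling, was at 16.1 ± 1.25 CPM in G659fs, 10.8 ± 1.17 in WT and 10.4 ± 1.16 in GFP (0.57 ± 0.09, adjusted p = 0.000524), and ID1, ID2, SKI and PMEPA1 were the others, of which ID1 differed by 0.58. The count was 3 without WT replicate 3 or G659fs replicate 2 and 2 with the length offset. Of 23 cholesterol synthesis genes 7 were higher (30.4%, against 11.1% of all genes) and 1 lower (median 0.15). LSS, the enzyme that closes the sterol rings, differed by 0.19 ± 0.05 (adjusted p = 0.009, and not called with the GC trend removed) and EBP, a sterol isomerase, by 0.19 ± 0.04 (adjusted p = 0.0055). HMGCS1, at the start of the pathway, was not called. The count of higher calls was 12 without WT replicate 2, and 4 without WT replicate 3, G659fs replicate 2 or G659fs replicate 3 and with the length offset. With all 16 libraries 1 gene was called higher in each of these lists. Axonemal cilia genes were lower in 4 of 19 cases (21.1%, against 12.5% of all genes) and higher in 0 (median -0.25). The 4 were CFAP43, WDR78, DNAH6 and DNAH17, and 2 genes were lower with the length offset.

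In the next 5 lists 5.26% to 25% of the members were called, against 23.6% of all genes. Heat shock genes were higher in 1 and lower in 1 of 18 cases, interferon genes in 1 and 3 of 16, YAP/TAZ targets in 2 and 1 of 16, hypoxia genes in 0 and 1 of 19 and glycolysis genes in 1 and 2 of 16. The interferon-induced nuclease gene ISG20 differed by -1.02 ± 0.17 (adjusted p = 0.000849, and 0.0828 with the length offset). The others of that list, apart from IFI6, ISG15 and IFIT2, were not called. IFIT2 lost its call in 7 of 22 alternatives, among them DESeq2, and IFI6 and ISG15 lost theirs with all 16 libraries. The interferon list had 1 lower call with the length offset and 1 with all 16 libraries. Replication-dependent histones were higher in 1 of 10 cases, and none of the 13 mitochondrially encoded genes was called, with a summed level of 15050 to 16660 CPM in G659fs and 13770 to 16940 CPM in WT.

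**Figure D5:**
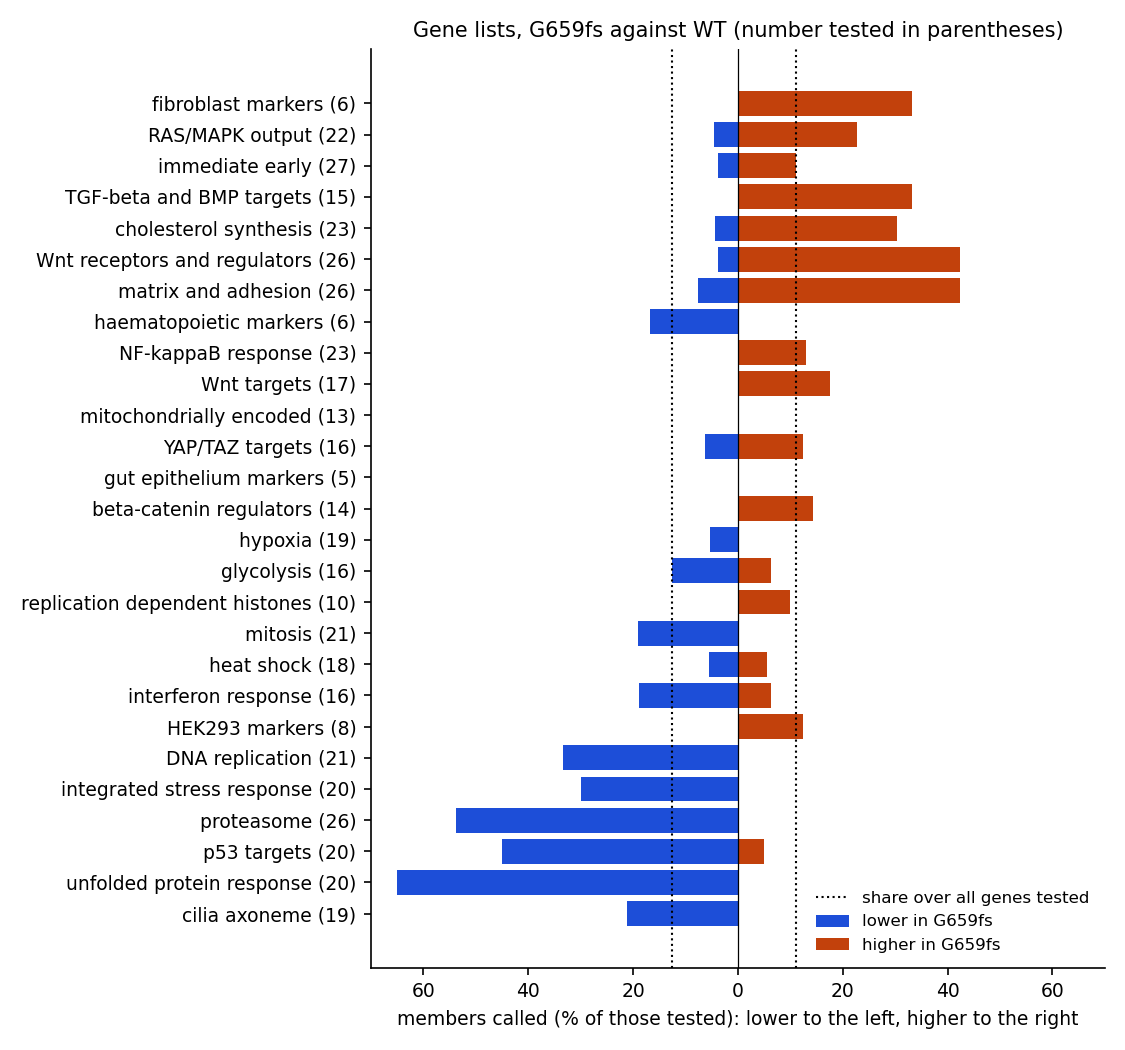
Share of the tested members of each gene list that was called lower (blue, to the left) or higher (orange, to the right) in G659fs against WT, with the lists in order of their median log2 difference and dotted lines at the shares over all genes tested, 12.5% lower and 11.1% higher. The unfolded protein response (65% lower), the proteasome (53.8% lower) and p53 targets (45% lower) reach farthest to the left, and Wnt receptors and matrix genes (42.3% higher each) farthest to the right.

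Outside the lists, the widest gaps among protein-coding genes above 1 CPM were mostly at low levels. The genes were chosen by size among calls whose libraries did not overlap, so their lack of overlap is not a result. Choice by the gap also favours genes in which WT lies apart from both other groups, so such an order is not a result either. Of the 12 lowest in G659fs relative to WT, NECTIN4 and ESRP1 are described above. DHRS2, a mitochondrial reductase gene, had 8.23, 4.71, 5.08 and 7.54 CPM in G659fs, against 28.48, 12.13, 18.76 and 16.87 CPM in WT and 40.12 to 54.53 CPM in GFP (difference -1.60 ± 0.29, adjusted p = 0.00438). Both constructs were below GFP and the variant was below WT. KCNN4, a calcium-activated potassium channel, stepped down in the same order, with means of 0.32, 1.21 and 2.32 CPM in G659fs, WT and GFP (-1.94 ± 0.25).

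Others among these 12 had WT above both other groups, an order that the choice favours. DRD5, HKDC1, TLX1, FCRLA and CFAP61 had means under 1 CPM in G659fs and passed the limit of 1 CPM through WT alone. DRD5, a dopamine receptor gene, had 0.30 to 0.37 CPM in G659fs, 0.91 to 1.69 CPM in WT and 0.19 to 0.81 CPM in GFP (difference -1.96 ± 0.31, adjusted p = 0.000539, the widest of the 12). The hexokinase-like gene HKDC1 was at 0.54, 1.36 and 0.56 CPM in G659fs, WT and GFP (-1.33, adjusted p = 0.0015). With the length offset its difference was -0.70 and its call was lost (adjusted p = 0.218). The homeobox gene TLX1 was at 0.47, 1.15 and 0.14 CPM (-1.33). FCRLA (-1.42), CFAP61 (-1.51) and FRG2B (-1.33) were also highest in WT, and FRG2B has near-identical copies that make its counts uncertain. KLHDC7B (-1.44 ± 0.41, adjusted p = 0.0301) lost its call in 8 of 23 alternatives.

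Of the 12 highest in G659fs relative to WT, ZCCHC12, a zinc finger gene, was the most abundant. It had 83.53, 114.7, 110.4 and 105 CPM in G659fs, against 27.49, 77.3, 42.49 and 57.98 CPM in WT and 20.34 to 28.28 CPM in GFP. WT replicate 2 was closest to G659fs and WT replicate 1 lay inside the GFP range, and the difference of 1.01 ± 0.27 (adjusted p = 0.0259) lost its call in 6 of 23 alternatives. CACNA1G, a T-type calcium channel gene, had 6.62, 10.41, 10.29 and 8.37 CPM in G659fs, against 2.77, 5.44, 3.58 and 3.75 CPM in WT and 4.54 to 7.498 CPM in GFP (1.19 ± 0.21, adjusted p = 0.00243). G659fs overlapped GFP, and WT did as well from below. COL3A1, a fibrillar collagen gene, was at 2.79 ± 0.47 CPM in G659fs, 1.20 ± 0.26 in WT and 1.34 ± 0.53 in GFP (1.22 ± 0.23, adjusted p = 0.00169).

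CGA, the shared subunit of the glycoprotein hormones, had 1.54, 1.92, 2.44 and 2.30 CPM in G659fs, against 0.41, 1.47, 0.56 and 0.98 CPM in WT and 0.33 to 0.53 CPM in GFP (1.23 ± 0.29, adjusted p = 0.00625). GCM1, a placental transcription factor, was at 1.31 CPM in G659fs and 0.61 CPM in WT, with 1.38 CPM in GFP (1.11 ± 0.25), so that WT was the group apart. MTUS2 (1.20), KLHDC8A (0.97), the glycosyltransferase gene MFNG (0.96), NMRK2 (0.94), MLC1 (0.94) and RGPD1 (1.05), whose near-identical copies make it uncertain, completed the 12 with ETV4. The calls of MLC1 (0.58, adjusted p = 0.44) and KLHDC8A were lost with the length offset, and that of RGPD1 in 4 of 23 alternatives.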

How the data were processed

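Per the submitters' processing notes, reads were quantified with kallisto 0.45.1 on GRCh38. Per the labels' protocols, extraction used RNeasy with a DNase I step, and library preparation used NEBNext reagents. For read length, strand setting and RNA selection the record is "not given in the sources used here". Each deposited file holds 1 estimated count and 1 TPM value for each transcript, per the file headers. The TPM was used for RNF43 transcripts alone.

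Of 178136 transcripts 162453 (91.2%) matched GENCODE 29 by identifier, and the rest, 2.042% to 2.216% of the counts of these 12 libraries, were left out. Estimated counts were summed per gene, rounded and filtered (filterByExpr), which left 16576 of 28028 genes with counts. Reads shared by near-identical genes are split by estimation, and overlapping genes cannot be told apart.

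G659fs, WT and GFP (12 libraries) were fitted together with edgeR 4.0.16 in R 4.3.3 (TMM, robust dispersions, robust quasi-likelihood F test), with a common biological coefficient of variation of 0.0633. R117fs was left out because earlier results had shown its libraries to vary more, and the fit with all 16 is an alternative. Standard errors come from the log2 difference and the F value, and 95% intervals from the t distribution. The scripts were tested on simulated counts.

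The members, the 28 gene lists and the tests were chosen with earlier results of these data known. Genes named are RNF43, the 12 genes of the response to WT, the 12 widest called differences in each direction among protein-coding genes with a mean of at least 1 CPM in G659fs or WT and libraries that did not overlap, and up to 4 called members per list by smallest p. Other list members were named after their values were seen, and a few genes that the rule names are not reported here. Alternatives were DESeq2 1.42.0 and its size factors, other low-count filters, other sets of libraries, an effective length offset, removal of the GC trend, RNF43 left out of library sizes, a replicate block and each library left out in turn.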

Additional observations from a re-analysis of the deposited data

Results flagged for a closer look

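In 8 of 216 sets of 4 libraries of a named gene, 1 library lay far from the other 3, by a gap whose ratio to the range of the set is above Dixon's critical value at the 95% level. Chance alone gives about 1 in 20. The ratio was 0.928 for ALPK3, where WT replicate 1 was lowest at 2.72 CPM and the others at 4.91 to 5.08, and 0.891 for KREMEN2, where WT replicate 2 was highest at 5.92 CPM and the others at 4.32 to 4.49. It was 0.893 for PSMB4 (WT replicate 1 highest, 260.8 against 239.3 to 241.6 CPM), 0.851 for RFC5 (WT replicate 1 highest, 127.2 against 118.5 to 119.8 CPM) and 0.876 for PHLDA3 (WT replicate 2 lowest, 16.5 against 19.6 to 20.1 CPM). WT replicate 4 was highest in SKI (0.904; 119.6 against 114.4 to 114.9 CPM) and PMEPA1 (0.833; 12.6 against 11.0 to 11.3 CPM). In G659fs, replicate 3 was lowest in DVL1 (0.882; 177.3 against 181.8 to 182.4 CPM).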

How the results depend on the processing

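With all 16 libraries in 1 fit the count of genes called between G659fs and WT was 837 (336 higher, 501 lower, 224 at 1.5-fold or more), with 4187 for G659fs against GFP and 3522 for WT against GFP. Higher calls were then 40.1% of the calls, against 47.1% in the fit of 12. The effective length offset gave 1943 calls, 868 higher and 1075 lower, of which 1802 were among the 3909. The cause was not tested. Leaving out 1 library gave 2394 to 4229 calls, 1083 to 2001 higher, 1311 to 2242 lower, 244 to 502 at 1.5-fold or more, 12286 to 12768 genes with the interval within 1.5-fold, 6013 to 7268 calls for G659fs against GFP and 5434 to 6545 for WT against GFP, and a difference in RNF43 transcript share of -0.77 to -0.47 percentage points. The fewest genes called between the constructs came without G659fs replicate 2 (2394) and G659fs replicate 3 (2483). The counts at 1.5-fold were 244 without G659fs replicate 2, 249 without WT replicate 1 and 268 without G659fs replicate 3. The fewest for G659fs against GFP came without G659fs replicate 2, for WT against GFP without GFP replicate 4, and within 1.5-fold without WT replicate 2. The other settings gave 3457 calls (no filter) to 4607 (8 libraries alone), with 4170 by DESeq2, 3912 with DESeq2 size factors and 4178 with the GC trend removed.

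The replicate numbers were not taken as pairs, since not every pair of libraries with the same number correlated by more than 0.1 in its deviations from the group means. For numbers 1 to 4 the correlations were 0.169, 0.152, -0.005 and 0.036 between G659fs and WT, where numbers 1, 2 and 4 correlated best with their own number, and 0.168, 0.215, 0.116 and 0.054 between WT and GFP, where 2, 3 and 4 did. Between G659fs and GFP they were 0.107, 0.068, -0.010 and 0.012, and number 1 correlated best with its own. With the replicate block 4833 genes were called (2310 higher), and 5265 with the block and the GC trend removed. Under the block the lists with counts that moved by more than 1.5 times were immediate early genes (12 of 27 higher), RAS and MAPK genes (10 higher), cholesterol synthesis (12 higher), the integrated stress response (11 lower) and DNA replication (12 lower), counting lists with at least 3 calls in the fit without it.

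Of 2476 values of the named genes under these alternatives 2 changed sign, those of PTGS2 with the length offset (0.10) and ALPK3 without WT replicate 1 (-0.003), both genes that were not called. No gene that was called changed direction. In 182 a call was lost, 49 of them with all 16 libraries and 89 with 1 library left out, and in 2 one was gained. Depth limits the genes of low level: at under 1 CPM a gene has few counts in a library, and its interval is wide.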
